A study of Mus musculus with 8 samples.

Results

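The genes described here are 9 mouse genes that encode proteins of endothelial cell junctions: Cldn5, Ocln, Tjp1, Cdh5, Esam, F11r, Jam2, Jam3 and Pecam1. They were taken by gene symbol from the 33641 symbols with a value in each library, and all 9 were found in all 8 libraries. RNA-seq was performed on endothelial cells, sorted by FACS as CD45-CD31+ cells from microdissected lung tumors 21 days after LLC cells (a Lewis lung carcinoma line) were injected. There were 4 control libraries (C1 to C4) and 4 endFoxf1+/- libraries (H1 to H4). In endFoxf1+/- mice a tamoxifen-activated Cre recombinase under the endothelial Pdgfb promoter deletes exon 1 from the 1 floxed Foxf1 allele, while the other allele stays intact (Pdgfb-iCreER; Foxf1 fl/+). The study describes controls as littermates with only the floxed allele or only the Cre, and its methods for the LLC model name C57Bl/6 wild-type mice; mice were 6 to 8 weeks old at tumor cell injection. Which of these gave the 4 control libraries was not given. Cre activity depends on the promoter, so cells in which it did not act keep both alleles, and CD31, the protein used for the sort, is encoded by Pecam1, 1 of the 9 genes. The levels are TPM, relative transcript abundances that sum to the same total in every library, which are scaled for transcript length, so that levels can be compared between genes. Because the total is fixed, a symbol that takes a larger share lowers the others, and the most abundant symbol took 5.11% to 11.3% of the TPM in control libraries, 7.15% to 7.94% in H1 to H3 and 21.8% in H4. The labels do not state whether each library came from 1 mouse, so the 4 libraries of a group may not be 4 animals, and p-values measure the spread between these libraries.

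Endothelial cells are held together by adherens junctions and tight junctions, which lie intermingled along the cell border and limit the passage of fluid, solutes and cells out of the blood. In adherens junctions VE-cadherin, the product of Cdh5, binds its like on the next cell and is tied to actin through catenins. In tight junctions claudins form the strands that seal the space between cells, occludin and the JAM proteins sit beside them, and ZO-1, the product of Tjp1, anchors them to actin inside the cell. PECAM-1 and ESAM are immunoglobulin-like proteins of the same contacts. Tumor vessels are known for disordered junctions and for leakiness.

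The deleted gene was examined first. Foxf1 measured 213, 285, 296 and 331 TPM in C1 to C4, and 177, 203, 14.04 and 105 TPM in H1 to H4. Every endFoxf1+/- library lay below every control library, and H3 far below. Mean Foxf1 was 281 ± 49.5 TPM in control and 125 ± 84.6 TPM in endFoxf1+/- tumor endothelial cells (TECs; SD, n = 4 in each), and the exact two-sided permutation test of log2(TPM + 1) gave p = 0.0286, the smallest p that 4 libraries against 4 can give. The log2 difference was -1.68, and it was -0.83 without H3 (exact permutation p = 0.0571) and -0.55 without H3 and H4 (p = 0.0667, the smallest possible). A TPM for the whole gene does not separate the allele without exon 1 from the intact one.

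The 2 endFoxf1+/- libraries H3 and H4 stood apart from the other 6. Their median Pearson correlation with the other libraries across genes was 0.795 for H3 and 0.892 for H4, against 0.958 to 0.968 for the rest, and genes are not independent replicates. The geometric mean of 18 endothelial markers that are not among the 9 junction genes, such as Kdr and Tie1, was 84.7% to 106% of the control mean in C1 to C4, 114% in H1 and 116% in H2, but 6.002% in H3 and 59.0% in H4, with 18 of 18 markers in H3 and 13 of 18 in H4 below every control library. The 9 junction genes gave 108% in H1, 108% in H2, 8.46% in H3 and 67.5% in H4. Leukocyte markers (10 genes) reached 849% of the control mean in H3, where 10 of 10 exceeded every control library, and 126% to 142% in H1, H2 and H4, against 57.8% to 125% in control libraries; Ptprc, which encodes CD45, measured 91.2 TPM in H3 and 2.94 to 9.13 TPM in control libraries. Epithelial markers (12 genes) were at 191% of the control mean in H4 and 198% in C3, and at 31.7% in H2 and 31.2% in H3. Mesenchymal markers (10 genes) ranged from 81.5% to 133% in control and from 91.9% to 191% in endFoxf1+/- libraries, platelet and erythroid markers (8 genes) from 73.0% to 147% and from 20.0% to 55.4%, and lymphatic endothelial markers (5 genes) from 85.3% to 115% and from 28.4% to 158%. Of the mesenchymal markers, Dcn and Lum were higher and Rgs5 and Myh11 lower in every endFoxf1+/- library than in every control library. Leukocyte levels were higher, and platelet and erythroid levels lower, in all 4 endFoxf1+/- libraries than in every control library (exact permutation p = 0.0286 for each). H1 and H2 thus also differed from control in these markers, although H1 (126%) was close to C3 (125%) for leukocytes. No marker of any of the 6 lists was listed at 0 in any library. In sorted cells measured in bulk, fewer cells of a type and less RNA per cell cannot be told apart, and the part of these differences in the junction gene results was not tested; the main values without H3, without H4 or without both are given beside those of all libraries.

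**Figure D1:**
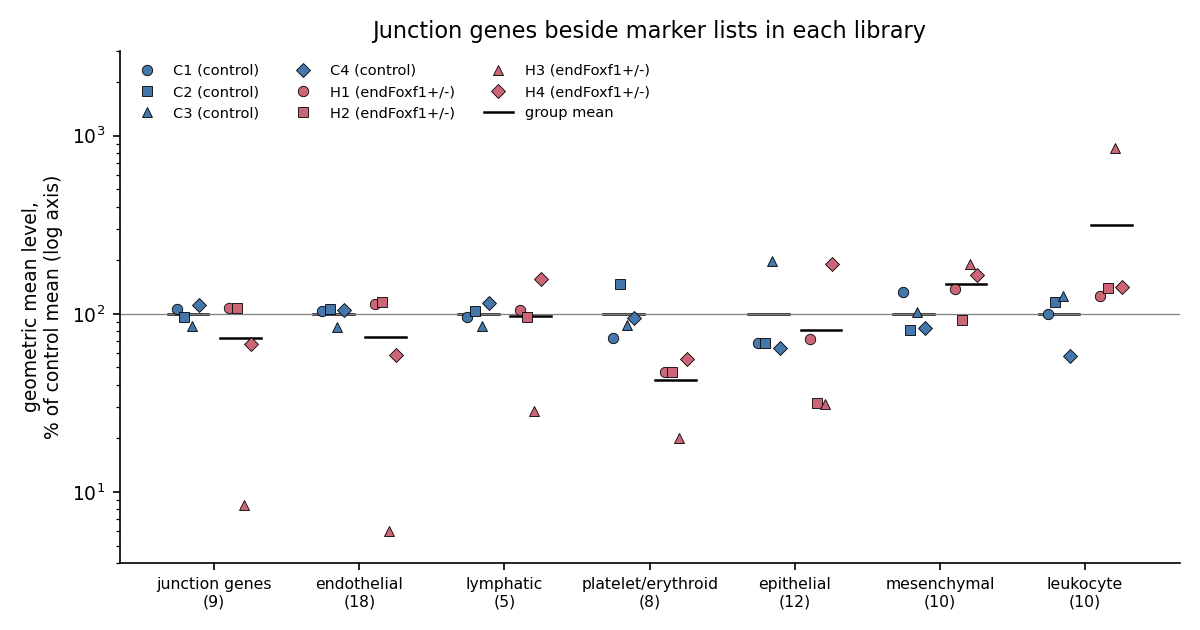
Geometric mean level of the 9 junction genes and of 6 marker lists in each library, as a percentage of the control mean (log axis, number of genes in brackets), with bars for the group means. In H3 the junction genes stood at 8.46% and the endothelial markers at 6.002% of control, while leukocyte markers stood at 849%.

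The 9 junction genes spanned a wide range of levels in control TECs. Cdh5 came first of the 9, with 1599 ± 169 TPM (SD, n = 4), followed by Pecam1 with 1264 ± 186 TPM and Cldn5 with 1200.0 ± 219.6 TPM. The control ranges of Cdh5 and Pecam1 overlapped, as did those of Pecam1 and Cldn5. Esam (593 ± 77.1 TPM) and Tjp1 (366 ± 42.2 TPM) came next, without overlap between them. F11r (114 ± 9.86 TPM) and Jam2 (105 ± 31.1 TPM) overlapped, Ocln lay lower at 32.1 ± 2.44 TPM, and Jam3 was the least abundant at 10.5 ± 1.71 TPM. Cdh5 had rank 1, Ocln rank 8 and Jam3 rank 9 in all 8 libraries. Cldn5 had rank 2 or 3 in 7 libraries and rank 5 in H4, whereas Tjp1, with rank 5 in 6 libraries, had rank 4 in H3 and rank 3 in H4. The coefficient of variation between control libraries ran from 7.59% for Ocln to 29.5% for Jam2. Between endFoxf1+/- libraries it ran from 60.2% for Tjp1 to 85.9% for Cldn5.

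**Figure D2:**
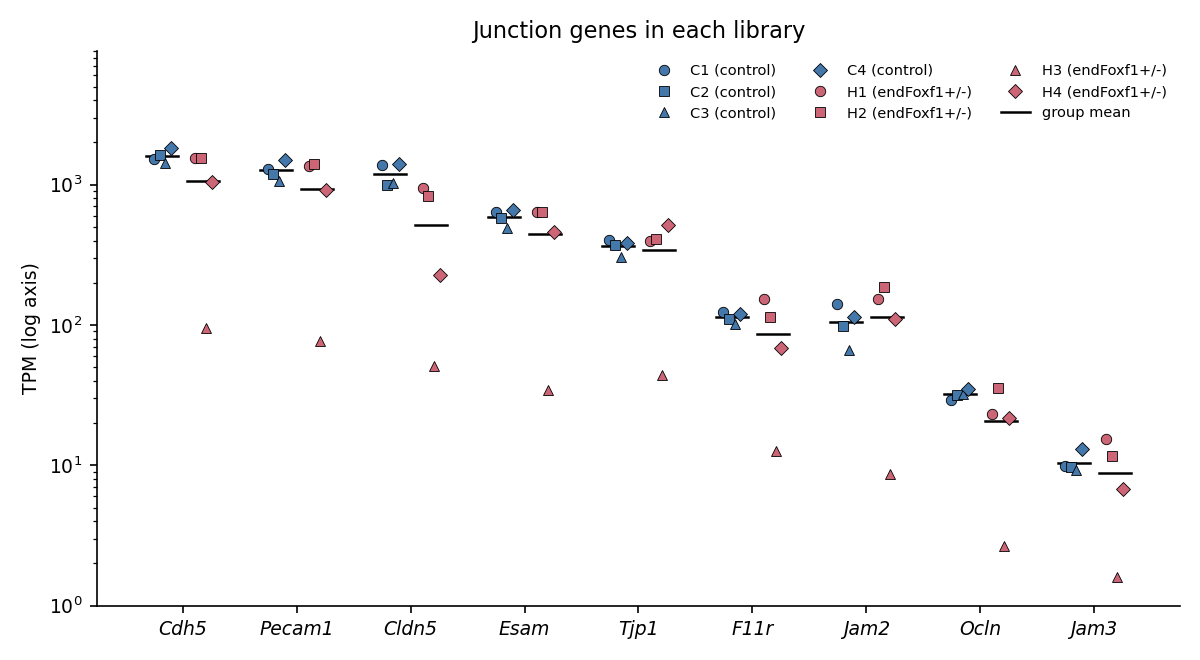
TPM of the 9 junction genes in each control (blue) and endFoxf1+/- (red) library on a log axis, ordered by the control mean, with bars for group means. H3 lies lowest for every gene, and Cldn5 is the gene whose 4 endFoxf1+/- values all lie below its 4 control values.

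Claudin-5 mRNA was lower in every endFoxf1+/- library than in every control library, but the difference did not pass the adjusted threshold over all genes. Cldn5, the main claudin of endothelial tight junction strands, lies at chr16:18776847-18778262 on the plus strand (GRCm38), a span of 1416 bases. It measured 1369.7, 998, 1023 and 1409 TPM in C1 to C4, and 949, 835, 51.0 and 228 TPM in H1 to H4. The lowest control library was higher than the highest endFoxf1+/- library, and the decrease was small in H1 and H2 and large in H3 and H4. As a percentage of the control mean, Cldn5 was at 79.1% in H1, 69.6% in H2, 4.25% in H3 and 19.0% in H4. The difference in mean log2(TPM + 1) was -1.93, and the exact permutation test gave p = 0.0286. Without H3 it was -1.07 (exact permutation p = 0.0286), without H4 -1.78 (p = 0.0286), and without both -0.41 (p = 0.133, where 0.0667 is the smallest p possible). When a control library was left out instead, the groups still did not overlap but the exact permutation p rose to between 0.143 and 0.171. In the limma fit across 14964 genes the log2 fold change of Cldn5 was -1.93 (SE 0.82) with an unadjusted p of 0.0411 and an adjusted p of 0.790, so it did not pass the threshold of 0.05 after Benjamini-Hochberg adjustment. The unadjusted limma p for Cldn5 was also above 0.05 without H3 (0.0512), without H4 (0.0970), without H3 and H4 (0.0555), with array weights (0.130), with no filter on low TPM (0.0583) and without any 1 control library (0.0601 to 0.0802).

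Cldn5 was the only 1 of the 9 genes whose groups did not overlap. Over all genes tested, 345 of 14964 (2.31%) were lower in endFoxf1+/- libraries without overlap and 409 (2.73%) were higher, 754 (5.04%) in either direction. By limma, 0 of 9 junction genes and 0 of 14964 genes (0%) had an adjusted p under 0.05. At an unadjusted p under 0.05 there was 1 of 9, Cldn5, beside 836 of 14964 (5.59%), of which 414 (2.77%) were lower and 422 (2.82%) higher. The fitted log2 fold change was under 0 for 9 of 9 junction genes and for 68% of all genes tested, with a median of -1.01 beside -0.17. Median-ratio scaling moved the median of all genes to -0.02 and quantile normalization moved it to -0.05; the junction genes then had medians of -0.86 and -0.78, with 9 of 9 below 0. Without H3 the median of the 9 genes was -0.06, with 6 lower and 3 higher, beside 0.01 for all genes tested. Without H3 and H4 the median was 0.14 for the 9 genes, with 3 lower and 6 higher, and 0.14 for all genes tested.

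**Figure D3:**
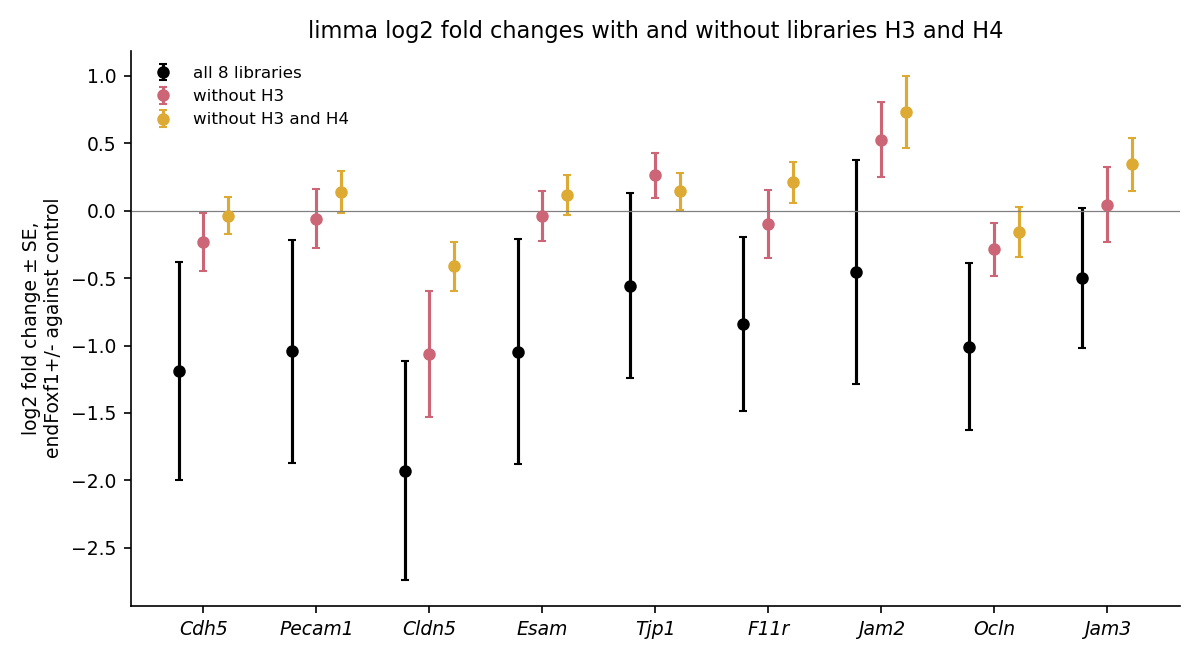
limma log2 fold changes on log2(TPM + 1), endFoxf1+/- against control, with standard errors, for all 8 libraries (black), without H3 (red) and without H3 and H4 (yellow). Cldn5 stays lowest of the 9 in each fit, at -1.93, -1.07 and -0.41, while Jam2 moves from -0.46 to 0.53 and 0.73.

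Tjp1 and Ocln overlapped between the groups when all 8 libraries were used. Tjp1, which encodes the scaffold ZO-1 (chr7:65296165-65527781, minus strand), measured 401, 373, 305 and 384 TPM in C1 to C4, and 396, 407, 44.2 and 516 TPM in H1 to H4. Only H3 was below the control libraries, and H2 and H4 were above them. Its log2 fold change by limma was -0.56 (SE 0.69, adjusted p = 0.831), with a 95% interval from -2.10 to 0.99, and it was 0.26 without H3. Ocln, which encodes the strand protein occludin (chr13:100496507-100552718, minus strand), measured 29.4, 31.5, 32.5 and 35.3 TPM in C1 to C4, and 23.1, 35.5, 2.64 and 21.7 TPM in H1 to H4. H1, H3 and H4 lay below every control library and H2 just above them. The log2 fold change of Ocln was -1.01 (SE 0.62, limma adjusted p = 0.790), with an exact permutation p of 0.143. Without H3 it was -0.29 (exact permutation p = 0.257), and without H2 it was -1.39, lower without overlap (exact permutation p = 0.0286, limma adjusted p = 0.451).

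The 3 JAM genes, whose immunoglobulin-like products bind across the tight junction and are used by leukocytes that cross the endothelium, overlapped between the groups. F11r, which encodes JAM-A (chr1:171437535-171464603, plus strand), measured 123, 111, 101.03 and 119.6 TPM in C1 to C4, and 152, 113, 12.7 and 68.7 TPM in H1 to H4. Jam2, which encodes JAM-B (chr16:84774123-84825928, plus strand), measured 141, 99.0, 66.6 and 114 TPM in C1 to C4, and 154, 186, 8.72 and 109.8 TPM in H1 to H4. Jam3, which encodes JAM-C (chr9:27097384-27155421, minus strand), measured 9.88, 9.79, 9.20 and 12.98 TPM in C1 to C4, and 15.5, 11.7, 1.61 and 6.74 TPM in H1 to H4. For F11r and Jam3, H1 was the highest library of all 8 and H3 and H4 the lowest; for Jam2, H1 and H2 were the highest and only H3 was below the controls. The log2 fold changes by limma were -0.84 (SE 0.64) for F11r, -0.46 (SE 0.83) for Jam2 and -0.50 (SE 0.52) for Jam3, with adjusted p from 0.797 to 0.878. Without H3 they were -0.10, 0.53 and 0.04. The mean TPM of Jam2 went the other way from its fit on all libraries, with 105 ± 31.1 in control and 115 ± 77.2 in endFoxf1+/- libraries (SD, n = 4). Without H3 and H4, Jam2 was higher in both remaining libraries than in every control library, with a log2 fold change of 0.73 and a limma adjusted p of 0.355. An exon of Jam3 overlaps the antisense gene Gm48796 by 773 bases, and the library kit keeps no strand, so reads from both cannot be told apart.

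Cdh5, Pecam1 and Esam overlapped between the groups and kept near-constant proportions to one another. Cdh5, which encodes VE-cadherin (chr8:104101625-104144511, plus strand), measured 1524, 1640.2, 1419 and 1813 TPM in C1 to C4, and 1547, 1558, 94.9 and 1036 TPM in H1 to H4. Pecam1 (chr11:106654217-106750628, minus strand) measured 1289, 1200.3, 1061 and 1505 TPM in C1 to C4, and 1363, 1398, 77.5 and 914 TPM in H1 to H4. Esam (chr9:37528078-37538319, plus strand) measured 635, 582, 489 and 665 TPM in C1 to C4, and 638, 640.5, 34.2 and 460.1 TPM in H1 to H4. For all 3 genes, H1 and H2 lay within the control range, H4 lay below it and H3 far below it. The limma log2 fold changes were -1.19 (SE 0.81) for Cdh5, -1.04 (SE 0.83) for Pecam1 and -1.05 (SE 0.83) for Esam, with adjusted p from 0.790 to 0.797. Without H3 they were -0.23, -0.06 and -0.04. The SD over 8 libraries of the log2 ratio of Esam to Pecam1 was 0.07, that of Cdh5 to Pecam1 0.11 and that of Cdh5 to Esam 0.13, the 3 smallest of the 36 pairs of junction genes. The widest was that of Cldn5 to Tjp1, at 1.04.

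Because the libraries differed in the level of endothelial markers, each junction gene was next compared with the other 8 in the same library. For this the mean log2(TPM + 1) of the other 8 genes was subtracted from that of the gene, so that a value above 0 means a level above their geometric mean. Apart from Cldn5, the genes ran from 5.77% (Esam) to 15.3% (Jam3) of the control mean in H3. In H4 they ran from 60.4% (F11r) to 141% (Tjp1). The reference thus did not move as 1 with the endothelial markers, and the part of RNA from other cells in it was not tested. Cldn5 stood at 2.75, 2.40, 2.64 and 2.70 in C1 to C4, and at 2.12, 1.92, 1.47 and 0.58 in H1 to H4. Cldn5 was thus lower relative to the other junction genes in every endFoxf1+/- library, also in H1 and H2, where the 9 genes together were at 108% of the control mean. The mean difference was -1.10 on the log2 scale, with an exact permutation p of 0.0286. It was -1.08 without H3 (exact permutation p = 0.0286), -0.78 without H4 (p = 0.0286) and -0.60 without both (p = 0.0667, the smallest possible), and with any 1 control library left out it was -1.05 to -1.17 with an exact permutation p of 0.0571. Of the other genes tested, 33 of 14955 (0.221%) were lower without overlap when set against the mean of the 9 junction genes, and 926 (6.19%) were higher, 959 (6.41%) in either direction.

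**Figure D4:**
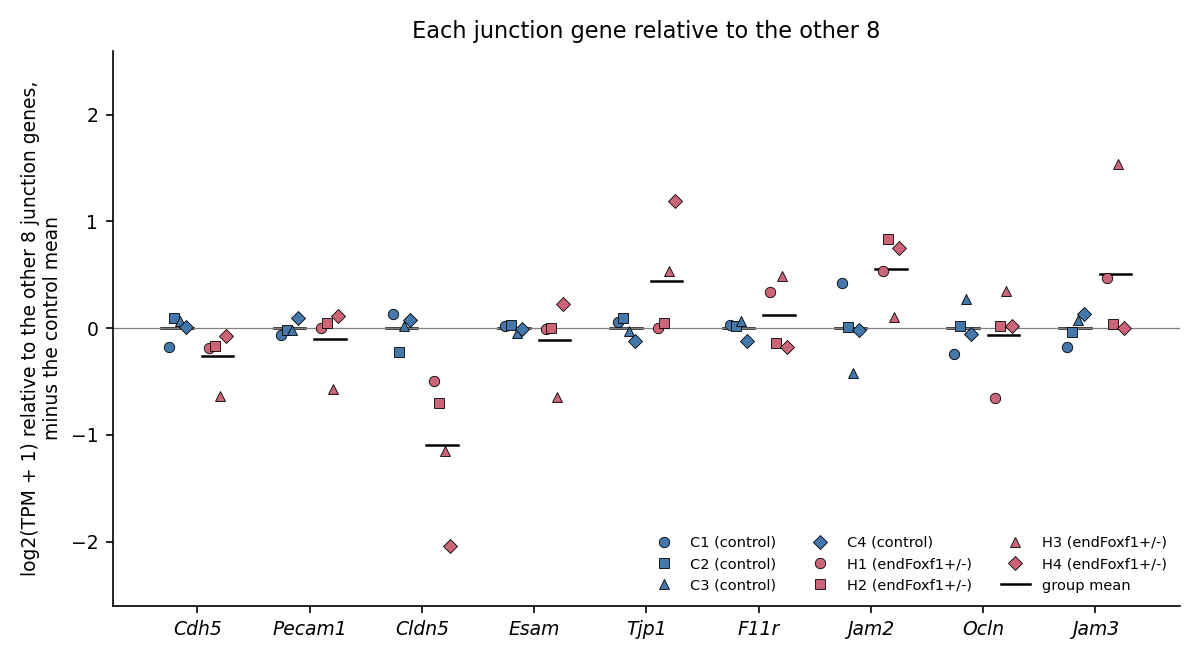
log2(TPM + 1) of each junction gene minus the mean of the other 8 in the same library, shown as the deviation from the control mean, with bars for group means. All 4 endFoxf1+/- values of Cldn5 lie below its control values, with a mean difference of -1.10, and those of the other 8 genes overlap with control.

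The other 8 genes overlapped between the groups on this scale. Jam2 stood at -0.93, -1.34, -1.77 and -1.37 in C1 to C4, and at -0.81, -0.51, -1.25 and -0.60 in H1 to H4. H1, H2 and H4 were above every control library and H3 was not. The difference for Jam2 was 0.56 (exact permutation p = 0.0571). Tjp1 was within 0.59 to 0.80 in control libraries and measured 0.71 in H1, 0.76 in H2, 1.24 in H3 and 1.90 in H4, so that H3 and H4 stood above the others. H3 had leukocyte markers at 849% and H4 epithelial markers at 191% of the control mean. C3, at 198% for epithelial markers, stood at 0.68 for Tjp1, and the part of RNA from other cells was not tested. The difference for Tjp1 was 0.44 (exact permutation p = 0.200). The differences were -0.26 for Cdh5 (exact permutation p = 0.0857), 0.51 for Jam3 (p = 0.229) and 0.13 for F11r (p = 0.457). Without H3 they were -0.14, 0.17 and 0.01, and that of Jam2 was 0.71, without overlap (exact permutation p = 0.0571). The difference for Tjp1 was 0.20 without H4 and 0.03 without H3 and H4. They were between -0.11 and -0.07 for Esam, Pecam1 and Ocln, with exact permutation p from 0.771 to 0.886.

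The junction genes were also set against the 18 endothelial markers instead of one another. Cldn5 stood at 2.46, 1.98, 2.34 and 2.49 above the markers' mean log2 level in C1 to C4, and at 1.80, 1.59, 1.77 and 0.70 in H1 to H4. Jam2 stood at -0.81, -1.34, -1.58 and -1.12 in C1 to C4, and at -0.81, -0.57, -0.65 and -0.35 in H1 to H4. Cldn5 was lower and Jam2 higher in every endFoxf1+/- library than in every control library, with C1 and H1 almost equal for Jam2. The difference was -0.85 for Cldn5 and 0.62 for Jam2, each with an exact permutation p of 0.0286. Without H4 these were -0.60 and 0.54 (exact permutation p = 0.0571 for both), and without H3 they were -0.95 (p = 0.0286) and 0.64 (p = 0.0571). Without H3 and H4 they were -0.62 (exact permutation p = 0.0667) and 0.52 (p = 0.133). By the same measure 17 of 14964 genes (0.114%) were lower without overlap and 648 (4.33%) were higher, 665 (4.44%) in either direction, while 1 of 9 junction genes stood in each direction. The other 7 junction genes overlapped, with differences from -0.11 for Cdh5 to 0.58 for Jam3 and exact permutation p from 0.171 to 0.914. Without H3, Jam3 differed by 0.16 and F11r by 0.01, and without H4 Tjp1 differed by 0.27. Without H3 and H4, Tjp1 differed by -0.07 and Cdh5 by -0.24, both lower without overlap (exact permutation p = 0.200 and 0.133). Foxf1 itself differed by -0.60 relative to the endothelial markers (exact permutation p = 0.0571). The groups overlapped for Foxf1 on this scale, as H3 (-0.02) lay above C1 (-0.21). In all, 27 comparisons of a junction gene were made on the 3 scales, which share their libraries and are not independent.

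The shift between the junction genes can be read from their shares of the summed TPM of all 9, which was 4506 to 6059 in control libraries, 5238 in H1, 5186 in H2, 327 in H3 and 3362 in H4. Cldn5 made up 24.8%, 19.8%, 22.7% and 23.3% of that sum in C1 to C4, and 18.1%, 16.1%, 15.6% and 6.78% in H1 to H4. Its share was smaller in every endFoxf1+/- library, and smallest in H4. Tjp1 made up 6.34% to 7.39% in control libraries, 7.57% in H1, 7.85% in H2, 13.5% in H3 and 15.4% in H4. Jam2 made up 2.55%, 1.96%, 1.48% and 1.88% in C1 to C4, and 2.95%, 3.58%, 2.66% and 3.27% in H1 to H4. Both shares were larger in each endFoxf1+/- library than in any control library. Cdh5 kept a share of 27.6% to 32.5% in control and 29.0% to 30.8% in endFoxf1+/- libraries. The shares sum to 100%, so a smaller share of 1 gene raises the others, and they are given as a description.

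**Figure D5:**
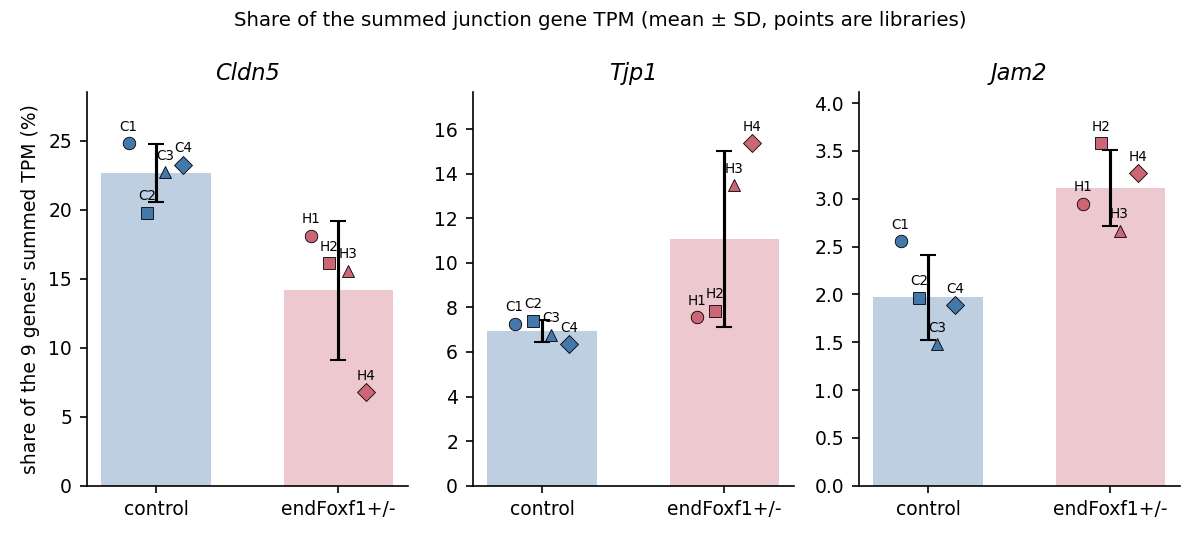
Share (%) of Cldn5, Tjp1 and Jam2 in the summed TPM of the 9 junction genes, with bars for the mean, error bars for the SD (n = 4) and a point for each library; each panel has its own axis from 0. The mean share of Cldn5 was 22.6% in control and 14.1% in endFoxf1+/- libraries.

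The pair whose log2 ratio had the widest SD over 8 libraries, Cldn5 and Tjp1, is shown with the 250 bases before an annotated start of each gene, as given by RefSeq for GRCm38.p6. RefSeq windows were at hand for 4 of the 9 genes: Cldn5, F11r, Ocln and Tjp1. The window of Cldn5 is chr16:18776597-18776846 on the plus strand, and that of Tjp1 is chr7:65371245-65371494 on the minus strand, before a start inside the span of the gene. Both are written 5′ to 3′, and capitals mark any match, on either strand, to TAAACA (a forkhead core), GGAA (an ETS core), CTTTGA (a TCF/LEF core) or CCAAT.
Cldn5: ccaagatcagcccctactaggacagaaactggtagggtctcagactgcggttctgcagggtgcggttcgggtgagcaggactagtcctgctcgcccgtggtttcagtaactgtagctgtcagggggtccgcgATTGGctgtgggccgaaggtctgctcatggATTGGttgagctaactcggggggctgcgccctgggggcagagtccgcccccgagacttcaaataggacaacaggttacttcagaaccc
Tjp1: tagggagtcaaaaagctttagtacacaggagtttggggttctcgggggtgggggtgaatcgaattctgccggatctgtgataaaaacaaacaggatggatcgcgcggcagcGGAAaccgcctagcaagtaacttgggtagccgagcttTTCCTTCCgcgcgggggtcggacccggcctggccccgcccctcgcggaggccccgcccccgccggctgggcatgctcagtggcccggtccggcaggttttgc
The Cldn5 window held 2 matches to CCAAT, both as ATTGG, and none to the other 3 motifs, with a GC content of 59.6%. The Tjp1 window held 3 matches to GGAA, none to the other motifs, and a GC content of 63.2%. Of 32817 windows of the same length before annotated starts, 12.03% held TAAACA, 93.4% GGAA, 13.8% CTTTGA and 33.8% CCAAT, and the median GC content was 52.4%. These are matches of letters and not binding sites.

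The genes that moved most like each junction gene were found by the SD, over 8 libraries, of the difference in log2(TPM + 1), among 10973 genes with a mean of at least 5 TPM. For Cldn5 the nearest were Tspan7 (SD 0.21), Cyp4b1 (0.21) and Tmem100 (0.24). For Jam2, the other gene that parted from the endothelial markers, they were Plcb4 (0.23), Timp3 (0.23) and Atp2a3 (0.24). Neither gene had a neighbour as near as the adherens junction gene Cdh5 had in Clic5 (0.07), Prickle2 (0.10) and Pllp (0.13). Esam was nearest to Sema3f (0.06), Clic5 (0.10) and Podxl (0.12), and Pecam1 to Sox18 (0.09), Clic5 (0.10) and Sema3f (0.10). Ocln was nearest to Lbp, Cav2 and Kcnq1 (0.14 to 0.15), Tjp1 to Snrk, Ptp4a3 and Ttll7 (0.13 to 0.15), F11r to Numb, Ppm1f and Mgll (0.12 to 0.14), and Jam3 to Csgalnact1, Pea15a and Txndc16 (0.11 to 0.14). These distances describe the same 8 libraries, with H3 and H4 among them.

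Other genes of the junction machinery did not pass the adjusted threshold in any of 6 lists, and the medians of these lists moved with H3. Without H3 the median over all genes tested was 0.01, that of the 9 junction genes -0.06, and those of the 6 lists between -0.25 and 0.34. The counts below are to be read beside all genes tested, of which 68% had a log2 fold change under 0 and 5.59% an unadjusted p under 0.05 by limma, so that a list of this size may hold none at that p. Of 23 other claudins listed, 6 could be tested, 5 were listed at 0 in every library, and 0 of 6 had an unadjusted p under 0.05 by limma. The median log2 fold change of the 6 was -0.76, and -0.25 without H3, with 5 of 6 below 0 in both. Of the 3 most abundant, Cldn18 measured 36.5, 37.0, 95.4 and 34.3 TPM in C1 to C4 and 36.1, 15.3, 5.39 and 116 TPM in H1 to H4, and Cldn3 measured 13.5 to 65.6 TPM in control and 3.28 to 38.4 TPM in endFoxf1+/- libraries. Cldn18 and Cldn3, which are known from epithelial cells, were highest in C3 and H4, the libraries with the highest epithelial markers, and the part of epithelial RNA was not tested. Cldn18 had a log2 fold change of -0.85 and Cldn3 of -0.94, or -0.18 and -0.43 without H3. Cldnd1, which encodes a claudin domain protein, had a log2 fold change of 0.38 (SE 0.25, limma adjusted p = 0.790), or 0.45 without H3.

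Among 25 tested genes of tight junction scaffolds and polarity, 17 had a log2 fold change under 0 and 8 over 0, with a median of -0.21 beside -0.17 for all genes. Without H3, 10 of 25 were below 0 and the median was 0.11. Amot, which encodes angiomotin, was higher without overlap, with 4.57 ± 0.42 TPM in control and 7.61 ± 2.27 TPM in endFoxf1+/- libraries (SD, n = 4; limma unadjusted p = 0.0490, adjusted p = 0.790). Its paralog Amotl2, named after its values were seen, was lower without overlap, with 66.5 ± 5.71 and 38.3 ± 23.4 TPM (SD, n = 4; limma adjusted p = 0.790). Without H3 the log2 fold changes were 0.44 for Amot and -0.45 for Amotl2. The most abundant of the list, Ybx3, Amotl1 and Mpdz, had log2 fold changes of 0.30, -0.21 and -0.03, or 0.05, 0.11 and 0.42 without H3.

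Other adherens junction genes, among them catenins, cadherins, nectins and VE-PTP, gave 12 of 17 tested below 0 and a median of -0.30, with 0 of 17 at an unadjusted p under 0.05 by limma. Over all genes tested, 68% were below 0, the median was -0.17 and 5.59% were at that p. Without H3, 8 of 17 were below 0 and the median was 0.03. Ctnnb1, which encodes beta-catenin, had a log2 fold change of 0.04 (SE 0.36), or 0.40 without H3. Jup, which encodes plakoglobin, had -1.16 (SE 0.76), and Ptprb, which encodes the phosphatase VE-PTP, -1.19 (SE 0.85), with limma adjusted p of 0.979 for Ctnnb1 and 0.790 for the other two. Without H3, Jup gave -0.26 and Ptprb -0.17. Among 8 other tested immunoglobulin-like and related contact genes the median was -0.53 and 7 were below 0, against -0.02 and 4 without H3. Cd47 was lower without overlap, with 505.5 ± 64.0 TPM in control and 356 ± 127 TPM in endFoxf1+/- libraries (SD, n = 4; limma adjusted p = 0.790, exact permutation p = 0.0286), and its log2 fold change was -0.59, or -0.27 without H3. Icam2 and Mcam, the other abundant genes of this list, overlapped, with log2 fold changes of -1.31 and -0.66, or -0.38 and 0.43 without H3. Relative to the mean of the 9 junction genes, however, Icam2 was lower without overlap (difference -0.36, exact permutation p = 0.0286), as were 0.221% of the other genes tested. Ybx3 and Gjc1 were higher without overlap on that scale, as were 6.19%.

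Among 4 connexins of gap junctions, Gja1, which encodes connexin 43, measured 28.2, 24.6, 26.1 and 16.9 TPM in C1 to C4, and 29.3, 28.3, 53.9 and 64.0 TPM in H1 to H4. The groups did not overlap, but H1 and H2 were just above C1, and the higher values were those of H3 and H4. Gja1 had a log2 fold change of 0.78 (SE 0.32, limma unadjusted p = 0.0361, adjusted p = 0.790), and 0.65 without H3. Gja4, the arterial connexin 37, had -1.49 (SE 1.02) and Gjc1 -0.16 (SE 0.43), and without H3 they had -0.42 and 0.30. Of 22 regulators of endothelial junctions such as small GTPases, kinases and adaptors, 19 were below 0 and 3 above, with a median of -0.30 and 0 of 22 at an unadjusted p under 0.05 by limma. Of all genes tested, 68% were below 0 and 5.59% were at that p, with a median of -0.17. Without H3, 10 of 22 were below 0 and the median was 0.02. The most abundant regulators, Rac1, Heg1 and Rhoa, had log2 fold changes of -0.47, -0.87 and -0.28, or -0.18, 0.09 and -0.16 without H3.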

How the data were processed

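TPM were used from 4 control and 4 endFoxf1+/- libraries of CD45-CD31+ cells. The authors deposited TPM per gene symbol for each library, normalized for transcript length and summing to 1000000. The submitters' processing notes name TopHat, Cufflinks, Subread and DESeq2 with GRCm38 and mm10; which tool made the TPM, and from which annotation, is not given in the sources used here. TPM keep no read number, so depth is unknown, no counting error was computed and DESeq2, which needs counts, was not repeated. Of 33641 symbols, 95.6% matched GENCODE vM21 on GRCm38, the source of coordinates. No pair of libraries held identical values (0 of 28).

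log2(TPM + 1) was fitted with limma 3.58.1 in R 4.3.3 (lmFit, eBayes with trend) for the 14964 genes that reached 1 TPM in 4 or more libraries, with Benjamini-Hochberg adjustment over all of them at 0.05. The fit was tested on simulated data. Single values were compared by exact two-sided permutation over all 70 assignments (Python 3.11.15, NumPy 2.4.6). Named genes were the 9 junction genes, Foxf1, from each other list the 3 tested genes of highest mean TPM and those with an unadjusted p under 0.05 and no overlap, and for each junction gene the 3 genes nearest by SD. Amotl2 and the markers Dcn, Lum, Rgs5 and Myh11 were named outside this rule, after their values were seen. The junction genes, lists and tests were chosen with earlier results of these data known. Alternatives were other pseudocounts, filters, normalizations and variance models, and fits without each library or without H3 and H4.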

Additional observations from a re-analysis of the deposited data

Results flagged for a closer look

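Of 54 sets of 4 library values checked (9 junction genes, 3 scales, both groups), 7 had a library farther from the others than Dixon's 95% critical value allows, where chance gives about 1 in 20. On the level scale these were H3 for Tjp1 (44.2 TPM), Cdh5 (94.9 TPM), Esam (34.2 TPM) and Pecam1 (77.5 TPM), each the lowest endFoxf1+/- library. Relative to the other 8 junction genes it was H3 for Pecam1, at 2.14 on the log2 scale, again the lowest. Relative to the 18 endothelial markers it was H4 for Esam (1.71) and for Pecam1 (2.70), the highest endFoxf1+/- library for both. No set of Cldn5 or Jam2 values held such a library, which does not show that these values were even. For Cldn5, H3 and H4 were both low (51.0 and 228 TPM), and a check for 1 stray library can miss 2. Jam2 measured 8.72 TPM in H3 against 109.8 to 186 TPM in H1, H2 and H4.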

How the results depend on the processing

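Of 377 alternative values of single junction genes, 330 kept their direction and side of the threshold, 34 turned sign and 13 lost an exact permutation p under 0.05. For log2 fold changes the threshold was the limma adjusted p, which no junction gene passed in any fit, so only their sign could turn. For the relative values it was the exact permutation p. Without H3 and H4 the smallest such p is 0.0667, so there a p under 0.05 could only be lost. No gene had an adjusted p under 0.05 by limma, but array weights gave 148, leaving out H3 and H4 together gave 2, and leaving out 1 library gave 0 to 1 (1 without C1). The 836 genes at an unadjusted p under 0.05 became 519 with a minimum of 5 TPM, 2866 with array weights, 1782 without H3 and H4, and 416 to 1589 with 1 library left out. The 1 junction gene at that threshold was Cldn5; the number became 0 with no filter and 0 to 2 with 1 library left out (2, Cldn5 and Ocln, without H2). With array weights and without H3 and H4 the 1 gene was instead Jam2, which was higher (limma unadjusted p = 0.0346 and 0.0260), while Cldn5 had an unadjusted p of 0.130 and 0.0555. Array weights gave H3 a weight of 0.0643 and H4 0.178, against 1.17 to 3.85 for the others, so both alternatives below rest mainly on H1 and H2.

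The sign of the log2 fold change turned with array weights and without H3 and H4, respectively, for Tjp1 (0.11, 0.14), Esam (0.052, 0.12), F11r (0.23, 0.21), Jam2 (0.64, 0.73), Jam3 (0.35, 0.34) and Pecam1 (0.062, 0.14). With 1 library left out it ran from -0.91 to 0.26 for Tjp1, -0.90 to 0.53 for Jam2 and -0.84 to 0.044 for Jam3, positive without H3. Cldn5, Ocln and Cdh5 stayed below 0 in every alternative, but shrank to -0.45, -0.33 and -0.13 with array weights and to -0.41, -0.16 and -0.04 without H3 and H4. Relative to the other junction genes, Ocln gave 0.12 with a pseudocount of 5 and -0.20 to 0.13 with 1 library left out, Esam -0.22 to 0.073, and Pecam1 -0.18 to 0.052, and 0.022 without H3 and H4. Relative to endothelial markers, Ocln gave -0.0052 with quantile normalization, -0.17 to 0.30 with 1 library left out and -0.37 without H3 and H4, and Tjp1 gave -0.065 without both. Esam gave -0.037 with a pseudocount of 5, -0.095 to 0.072 with 1 library left out, -0.090 without H3 and H4, and -0.0024 against Pecam1 alone. Pecam1 gave -0.054 with a pseudocount of 5, -0.059 to 0.093 with 1 library left out and -0.069 without both. The cause was not tested. Jam2 relative to endothelial markers stayed positive but had an exact permutation p of 0.0571 without C3 or any 1 endFoxf1+/- library, and without H3 and H4 it was 0.52 (exact permutation p = 0.133). The medians of the gene lists without H3 were added after seeing the data. No paired analysis was possible because the numbers in the labels differ for every library, and the replicate numbers were given in accession order. The number of libraries and the unknown depth limit the precision.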
